A study of Mus musculus with 4 samples.

Results

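The NRF2 pathway and the main antioxidant enzymes of the liver were followed as 10 genes, Nfe2l2, Keap1, Nqo1, Gclc, Gclm, Txnrd1, Srxn1, Hmox1, Cat and Sod2, chosen by gene name from the 35275 genes in the deposited read count table. All 10 had at least 1 CPM (counts per 1000000 counts, after scaling of the library sizes) in every library. Liver RNA came from 16 female mice in 4 groups, namely sedentary mice given vehicle (VS) or fibrils (FS) and interval-trained (IT) mice given vehicle (VI) or fibrils (FI). According to the paper the mice were R1.P1-Apoa2c, a line with the amyloidogenic Apoa2c allele of SAMP1 on the SAMR1 background, while the labels give the strain as AKR/J and the genotype as Apoa2c congenic. All groups carried this allele and were 26 weeks old. FS and FI mice had received AApoAII amyloid fibrils into the tail vein, which induces amyloidosis in this line, VS and VI mice had received saline vehicle, and VI and FI mice then ran for 16 weeks on a treadmill at alternating high and low speed. In the paper's histology, vehicle mice had no amyloid deposits, and trained fibril mice had far less liver amyloid than sedentary fibril mice. Amyloidosis as a factor therefore means fibril injection here, and FS and FI differ in amyloid load as well as in training. The liver of 4 mice was pooled per group before sequencing, so each group was 1 library. The groups had no replicates, and differences between mice could not be measured.

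NRF2, encoded by Nfe2l2, is a transcription factor that KEAP1, an adaptor of a CUL3 ubiquitin ligase, holds at low levels in unstressed cells. Oxidants and electrophiles modify KEAP1, NRF2 then accumulates, pairs with a small MAF protein and binds antioxidant response elements near genes of glutathione synthesis, thioredoxin recycling, quinone reduction and heme breakdown. In hepatocytes these enzymes work beside catalase in peroxisomes and manganese superoxide dismutase in mitochondria, which remove hydrogen peroxide and superoxide.

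Total counts were between 23442935 and 28814802 per library, and 3 counts corresponded to 0.102 to 0.127 CPM. All 8 hepatocyte markers were above 1 CPM in each library, with Alb alone taking 12.1% to 13.6% of the counts. Skeletal muscle markers, 8 genes, summed to 66.6, 7.51, 0.745 and 0.124 CPM in VS, VI, FS and FI, so the VS library stood apart in these genes. In FI, 6 of the 8 were at 0. FI versus VI is the amyloidosis contrast that does not use VS. Both vehicle libraries were above both fibril libraries, however, so the muscle markers differed in both amyloidosis contrasts. Kupffer cell markers, 9 genes measured of 10 listed and all above 1 CPM, summed to 298, 361, 459 and 459 CPM in the same order. Neutrophil markers, 8 genes, summed to 2.03, 2.09, 4.54 and 3.10 CPM, higher in both fibril libraries. Of them, 0, 1, 2 and 2 reached 1 CPM, and S100a8 and S100a9 made up most of each sum. Ltf went the other way, with 1, 2, 0 and 0 counts. Erythroid markers summed to 253 to 360 CPM, with Hba-a2, a near-identical copy of Hba-a1, at 0 in all libraries.

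The promoter sequences are shown because NRF2 acts on its target genes by binding antioxidant response elements. RefSeq promoter windows, from 250 bases before to 50 bases after the start of each gene on GRCm38.p6, were matched for 8 of the 10 genes, all but Gclc and Hmox1. The core of the antioxidant response element was searched as TGACNNNGC on both strands. It was found in the windows of Nfe2l2, Gclm, Txnrd1 and Srxn1, that is in 4 of 8 members, against 3781 of all 27025 gene symbols with a window (14.0%). The match in Nfe2l2 lay 240 to 232 bases before the start, that in Gclm 134 to 126 bases and that in Txnrd1 92 to 84 bases before the start of its second window, whereas the match in Srxn1 lay 29 to 37 bases after the start. Capitals mark the core, and each sequence is printed 5′ to 3′ on the strand of the gene, so the core reads as its reverse complement in Gclm and Txnrd1.
Nfe2l2, chr2:75704875-75704913, minus strand: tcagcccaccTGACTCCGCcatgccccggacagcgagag
Gclm, chr3:122245403-122245451, plus strand: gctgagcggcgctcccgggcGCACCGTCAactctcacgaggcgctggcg
Txnrd1, chr10:82859094-82859142, plus strand: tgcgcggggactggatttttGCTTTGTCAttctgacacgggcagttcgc
These letters were not found in the windows of Keap1, Nqo1, Cat and Sod2. A match describes the letters only, and binding was not measured.

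Per length, Cat was the most abundant member in every library, at 441 to 757 FPKM (counts scaled to gene length and to the total of the library), followed by Gclc at 58.9 to 103 FPKM. Nqo1 was the least abundant in every library, at 1.27 to 2.86 FPKM. The other 7 lay between these, with Gclm at 34.7 to 60.2 FPKM, Sod2 at 35.8 to 54.0 FPKM, Txnrd1 at 41.2 to 43.2 FPKM, Nfe2l2 at 15.3 to 22.8 FPKM, Hmox1 at 17.7 to 19.1 FPKM, Keap1 at 8.59 to 11.8 FPKM and Srxn1 at 7.54 to 13.2 FPKM. Among the 12180 genes that reached 1 CPM in any library, Cat ranked 114 by mean FPKM and Nqo1 ranked 8196. The ratio of the highest to the lowest CPM over the 4 libraries ran from 1.08 for Txnrd1 and 1.11 for Hmox1 to 1.78 for Gclc and 2.14 for Nqo1.

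**Figure D1:**
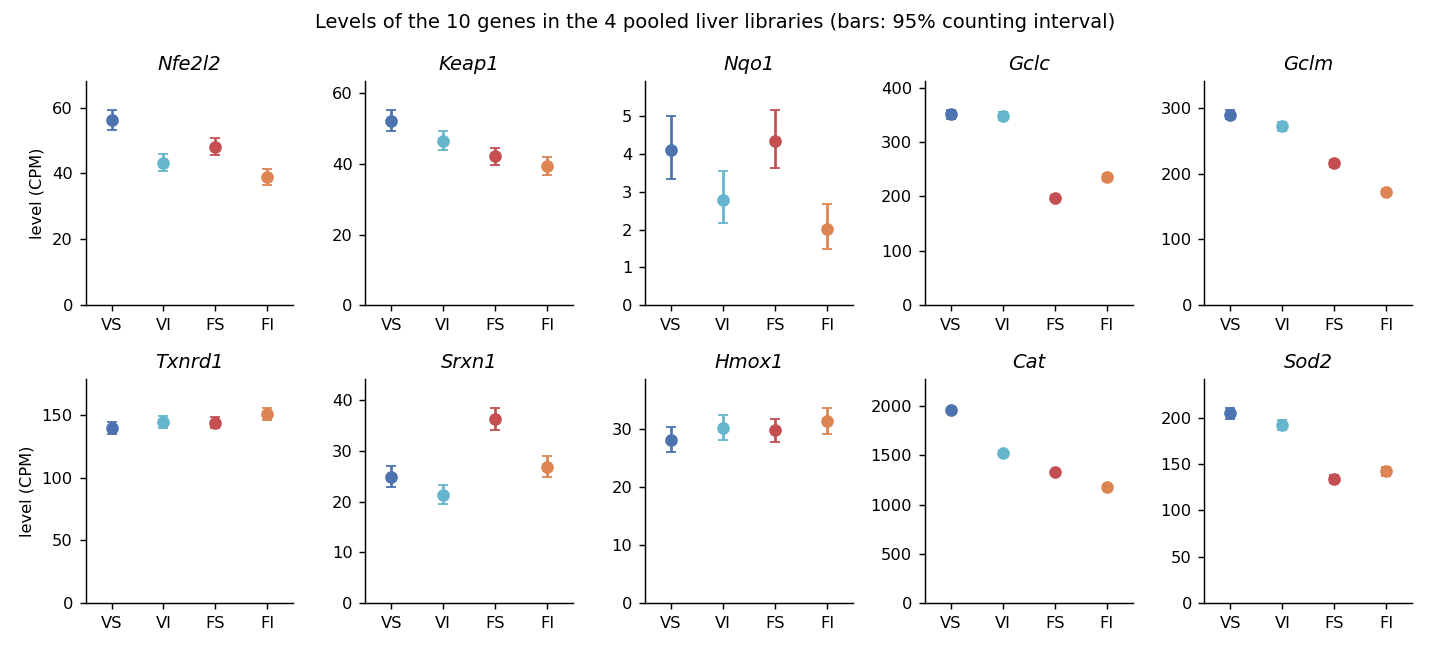
Level of each of the 10 genes in CPM (vertical axes start at 0 and differ between panels) in the VS, VI, FS and FI libraries. Points are 1 pooled library each and bars are 95% counting intervals. Gclc, Gclm, Cat and Sod2 were lower in both fibril libraries than in both vehicle libraries, Srxn1 was highest in FS, and Txnrd1 and Hmox1 stayed within 1.08-fold and 1.11-fold.

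With amyloidosis, the genes of both subunits of glutamate-cysteine ligase (Gclc and Gclm) and of the mitochondrial superoxide dismutase (Sod2) were lower, while Txnrd1 and Hmox1, the thioredoxin reductase and heme oxygenase genes, had log2 changes of 0.05 and 0.07. In an additive model of amyloidosis and IT over all 4 libraries (quasi-likelihood test of edgeR, p-values adjusted over 11760 genes by the Benjamini-Hochberg method), Gclc fell by 0.70, Gclm fell by 0.54 and Sod2 fell by 0.52 on the log2 scale with amyloidosis. These are 3 of 10 members, where 4.59% of all tested genes were called in either direction and 1.96% were called lower. Cat had a log2 change of −0.46 and Srxn1 one of 0.44, neither past the threshold. With IT, none of the 10 members was called by edgeR, DESeq2 or limma-voom, where 1.34% of all tested genes were called by edgeR. An unadjusted p below 0.05 was reached by 3 members (Nfe2l2, Nqo1 and Srxn1) and by 14.5% of all tested genes. The spread in this model rests on 1 residual degree of freedom, which is the departure from additivity, and on information shared across genes. All 3 amyloidosis calls were lost when amyloidosis was the only factor, and those of Gclm and Sod2 also without robust estimation.

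The 4 contrasts of single libraries had no test across mice and are given as log2 ratios of CPM with 95% counting intervals, which do not cover differences between mice or pools. The VS library served in both contrasts made with VS, and the FI library in both made with FI. Among the 12180 genes, 3.44% differed by more than 2-fold between VI and VS, 4.28% between FI and FS, 5.80% between FS and VS and 4.54% between FI and VI. One member did so, Nqo1 in FI versus FS. The median log2 ratio of the members was −0.13 in VI versus VS, −0.14 in FI versus FS, −0.27 in FS versus VS and −0.31 in FI versus VI, while that of all genes was between 0.0017 and 0.019. In the same order, 8, 6, 6 and 7 of the 10 members were lower in the first library, against 48.0% to 49.8% of all genes.

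**Figure D2:**
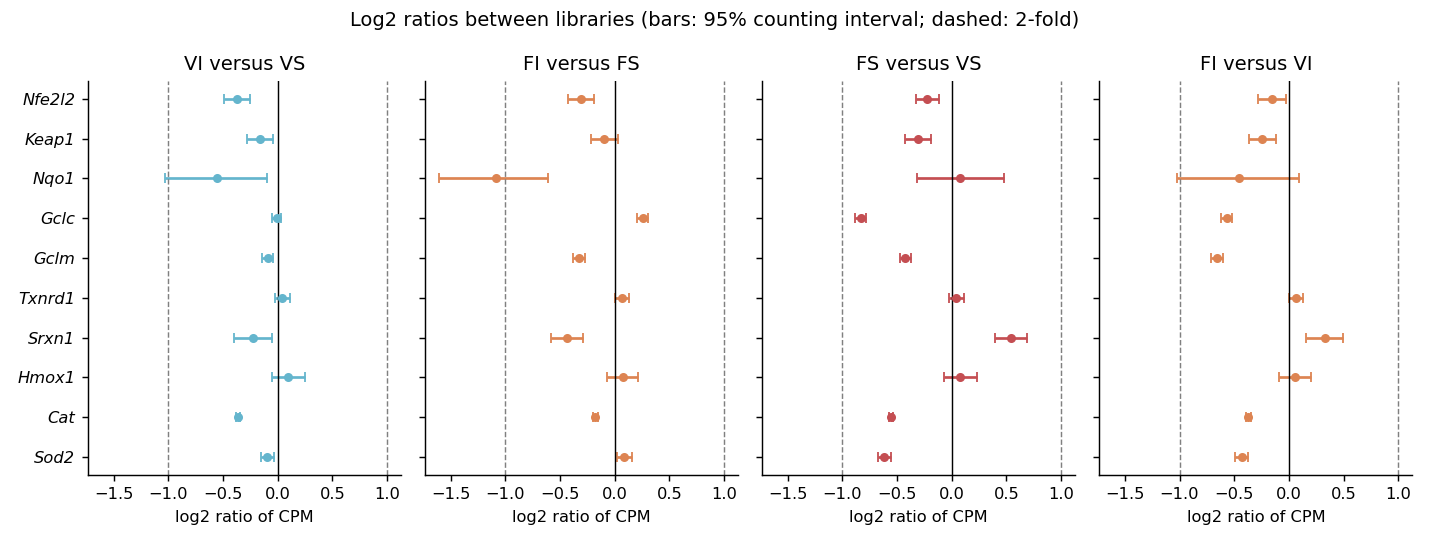
Log2 ratios of CPM for the 10 genes in the 4 contrasts. Points are the ratio of the first to the second library, bars are 95% counting intervals, the solid line is no difference and dashed lines mark 2-fold. Gclc, Gclm, Cat and Sod2 lay left of 0 in both amyloidosis contrasts (FS versus VS and FI versus VI), Srxn1 lay right of 0 in both, and the one point beyond 2-fold is Nqo1 in FI versus FS.

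Of the regulators, Nfe2l2 (ENSMUSG00000015839, mm10 chromosome 2, 75675513 to 75704641, minus strand) stood at 56.1, 43.3, 48.1 and 38.8 CPM in VS, VI, FS and FI. Both IT libraries were below both sedentary libraries, although the intervals of FS and VI overlapped. The Nfe2l2 transcript was 22.8% lower in VI than in VS (log2 ratio −0.37, 95% interval −0.49 to −0.25) and 19.2% lower in FI than in FS (−0.31, −0.43 to −0.19). It was also lower with fibrils, by 14.3% in FS versus VS and by 10.4% in FI versus VI. In the additive model the log2 change was −0.34 with IT (adjusted p = 0.223) and −0.19 with amyloidosis (adjusted p = 0.365), both with an SE of 0.11.

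Keap1 (ENSMUSG00000003308, chromosome 9, 21229730 to 21239332, minus strand), the repressor, stood at 52.2, 46.6, 42.1 and 39.4 CPM in VS, VI, FS and FI. Each neighbour in this order had an overlapping interval, and the highest level was 1.33-fold the lowest. FS was 19.3% below VS and FI 15.5% below VI, and the additive model gave a log2 change of −0.28 with amyloidosis (SE 0.111, adjusted p = 0.205). Keap1 overlaps the antisense gene Gm16754, which had 4 to 13 counts per library, and the sources used here do not say whether counting used the strand. The ratio of Keap1 to Nfe2l2 in FPKM was 0.515, 0.595, 0.485 and 0.561 in VS, VI, FS and FI. It was therefore higher in each IT library than in the sedentary library of the same injection, with overlapping intervals in both pairs (0.476 to 0.557 against 0.547 to 0.648, and 0.449 to 0.524 against 0.512 to 0.615).

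Glutamate-cysteine ligase, the rate-limiting enzyme of glutathione synthesis, is made of a catalytic subunit, GCLC, and a modifier subunit, GCLM. Gclc (ENSMUSG00000032350, chromosome 9, 77754535 to 77794485, plus strand) stood at 351, 348, 197 and 235 CPM in VS, VI, FS and FI. The vehicle libraries lay within their counting error of each other and far above both fibril libraries, of which FS was the lower. Gclc was 43.9% lower in FS than in VS (log2 ratio −0.83, −0.88 to −0.78), and 8.95% of all genes had a larger difference. Between FI and VI it was 32.5% lower (−0.57, −0.62 to −0.52), with 14.8% of genes beyond it. In the additive model the fall with amyloidosis had an SE of 0.126 and an adjusted p of 0.0238, with a range of 7.76e-06 to 0.122 over 6 alternative settings.

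Gclm (ENSMUSG00000028124, chromosome 3, 122245557 to 122269984, plus strand) stood at 289, 272, 216 and 172 CPM in VS, VI, FS and FI. No interval overlapped that of its neighbour, and FI was the lowest. Gclm was 25.6% lower in FS than in VS (log2 ratio −0.43, −0.48 to −0.38) and 36.7% lower in FI than in VI (−0.66, −0.72 to −0.60). A larger difference was found for 28.4% of all genes in FS versus VS and for 11.2% in FI versus VI. The additive model gave an SE of 0.122 and an adjusted p of 0.0491, which ranged from 0.00101 to 0.217 over the alternatives. The gene overlaps the antisense Gm17494, with 6 to 15 counts, and Gm6061, with 0 counts.

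The subunit genes moved in opposite directions with IT under fibrils. Gclc was 1.19-fold higher in FI than in FS (log2 ratio 0.26, 0.20 to 0.31), whereas Gclm was 20.1% lower (−0.32, −0.38 to −0.27). Under vehicle, the IT log2 ratio of Gclc was −0.01 (−0.05 to 0.03) and that of Gclm −0.09 (−0.14 to −0.04). Within a library, Gclc exceeded Gclm in FPKM 1.71-fold, 1.81-fold, 1.29-fold and 1.93-fold in VS, VI, FS and FI. FS thus had the lowest ratio, with an interval of 1.25 to 1.34 that lay below the others, which together spanned 1.66 to 2.01.

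**Figure D3:**
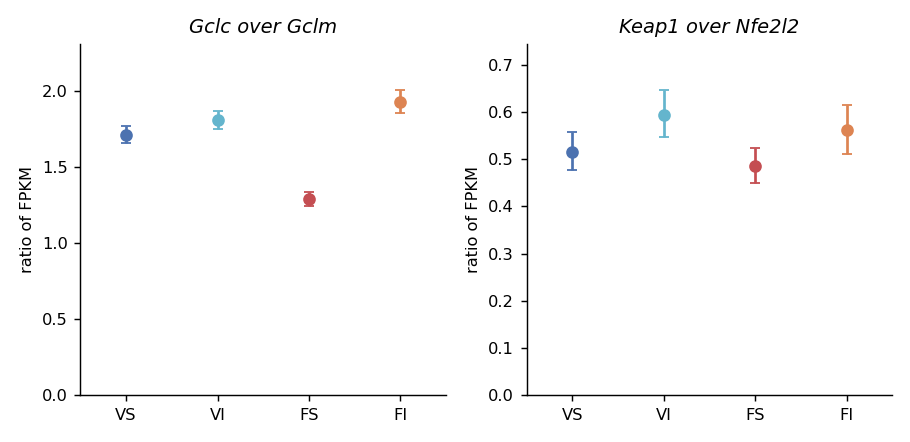
Ratio of FPKM within each library, of Gclc to Gclm (left) and of Keap1 to Nfe2l2 (right), with axes from 0. Points are 1 library each and bars are 95% counting intervals. The Gclc to Gclm ratio was 1.29 in FS and between 1.71 and 1.93 in the other 3 libraries, and the Keap1 to Nfe2l2 ratio was between 0.485 and 0.595.

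Txnrd1 (ENSMUSG00000020250, chromosome 10, 82859206 to 82897724, plus strand) encodes the cytosolic selenoprotein that reduces thioredoxin with NADPH. It stood at 139.8, 144, 144 and 151 CPM in VS, VI, FS and FI, and all neighbouring intervals overlapped. It was the member with the smallest range. The largest of its 4 log2 ratios was 0.065 (0.00071 to 0.13) in FI versus FS, which turned to −0.0060 under total counts and was also below 0 under FPKM, and the change in the additive model was 0.05 with amyloidosis (SE 0.11, adjusted p = 0.826) and 0.05 with IT (adjusted p = 0.872).

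Srxn1 (ENSMUSG00000032802, chromosome 2, 152105516 to 152111376, plus strand) encodes sulfiredoxin, which restores overoxidized peroxiredoxins. It stood at 24.9, 21.4, 36.2 and 26.8 CPM in VS, VI, FS and FI. FS stood above the other 3 libraries with no overlap, and it was the one member with an order of FS, FI, VS and VI. Srxn1 was 1.45-fold higher in FS than in VS (log2 ratio 0.54, 0.39 to 0.69) and 1.25-fold higher in FI than in VI (0.33, 0.16 to 0.50). It was lower with IT under both injections, by 14.4% in VI versus VS (−0.22, −0.40 to −0.05) and by 26.1% in FI versus FS (−0.44, −0.58 to −0.29). The additive model gave 0.44 with amyloidosis (SE 0.126, adjusted p = 0.0998) and −0.33 with IT (SE 0.126, adjusted p = 0.289). The first of these adjusted p-values ranged from 0.0264 to 0.416 over the alternatives.

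Nqo1 (ENSMUSG00000003849, chromosome 8, 107388225 to 107403206, minus strand) encodes the quinone reductase often used as a readout of NRF2. Reads on it numbered 97, 68, 128 and 49 in VS, VI, FS and FI, which is 4.11, 2.79, 4.34 and 2.03 CPM. Both IT libraries were below both sedentary libraries, but each neighbour in the order overlapped. Nqo1 was 53.0% lower in FI than in FS (log2 ratio −1.09, −1.60 to −0.61), where 3.38% of genes had a larger difference, and 31.9% lower in VI than in VS (−0.55, −1.03 to −0.10). The interval in FI versus FS includes differences below 2-fold, so at this depth the side of the threshold was not settled. In the additive model IT gave a log2 change of −0.82 (SE 0.254, adjusted p = 0.203, and 0.0526 to 0.898 over the alternatives). FS and VS were not distinguishable for Nqo1 at this depth (0.08, −0.31 to 0.47).

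Hmox1 (ENSMUSG00000005413, chromosome 8, 75093591 to 75100596, plus strand) encodes heme oxygenase, which opens heme to biliverdin and is abundant in macrophages that take up red cells. It stood at 28.2, 30.2, 29.8 and 31.4 CPM in VS, VI, FS and FI. All neighbouring intervals overlapped, and all 4 contrasts had an interval that included 0, with bounds between −0.09 and 0.25. The change in the additive model was 0.07 with amyloidosis (SE 0.117, adjusted p = 0.79) and 0.09 with IT (adjusted p = 0.799). The summed Kupffer markers were 298 and 361 CPM in the vehicle libraries and 459 CPM in both fibril libraries, and their part in the Hmox1 level was not tested. In pooled tissue, fewer cells of a type and less RNA per cell cannot be told apart, for Hmox1 as for the other members.

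Cat (ENSMUSG00000027187, chromosome 2, 103453849 to 103485160, minus strand), the peroxisomal catalase, stood at 1964, 1526, 1335 and 1180 CPM in VS, VI, FS and FI. With 28550 to 46369 counts per library no interval overlapped another. Cat was lower with fibrils, by 32.0% in FS versus VS (log2 ratio −0.56, −0.58 to −0.54) and by 22.7% in FI versus VI (−0.37, −0.39 to −0.35), and lower with IT, by 22.3% in VI versus VS (−0.36) and by 11.6% in FI versus FS (−0.18). Despite these narrow counting intervals, Cat did not pass the test: its log2 change was −0.46 with amyloidosis (SE 0.138, adjusted p = 0.106) and −0.27 with IT (SE 0.138, adjusted p = 0.421). The adjusted p for amyloidosis ranged from 0.0265 to 0.296 over the alternatives. A larger difference than that of Cat was found for 18.9% of all genes in FS versus VS and 28.3% in FI versus VI. For VI versus VS and FI versus FS these shares were 25.8% and 56.7%.

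Sod2 (ENSMUSG00000006818, chromosome 17, 13007839 to 13018119, plus strand), the manganese superoxide dismutase, stood at 205, 192, 134 and 142 CPM in VS, VI, FS and FI. Both fibril libraries were below both vehicle libraries, and FS and FI overlapped. Sod2 was 34.7% lower in FS than in VS (log2 ratio −0.62, −0.68 to −0.55) and 25.9% lower in FI than in VI (−0.43, −0.50 to −0.37). In the additive model the fall with amyloidosis had an SE of 0.116 and an adjusted p of 0.0468, with 0.00116 to 0.166 over the alternatives. Its log2 ratio with IT was −0.09 (−0.15 to −0.04) under vehicle and 0.09 (0.02 to 0.16) under fibrils, the latter 0.018 under total counts.

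The contrast of FI with VI does not use the VS library with its skeletal muscle transcripts. In it, the 3 genes called with amyloidosis had log2 ratios of −0.57 (Gclc), −0.66 (Gclm) and −0.43 (Sod2). FI and VI were also part of the fit that called these genes, so the same direction there is no separate support. The muscle markers summed to 7.51 CPM in VI and 0.124 CPM in FI, so FI versus VI also differed in these markers. The Kupffer cell markers were higher in both fibril libraries, while the hepatocyte markers summed to 159300, 162500, 169500 and 177800 CPM in VS, VI, FS and FI. Alb made up most of this sum, and single markers went other ways: Cyp2e1 stood at 11180, 9742, 6011 and 8798 CPM, lower in both fibril libraries, and Tat at 938, 2018, 3226 and 5278 CPM, higher in both. The part of these cell types in the falls of Gclc, Gclm and Sod2 was not tested.

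**Figure D4:**
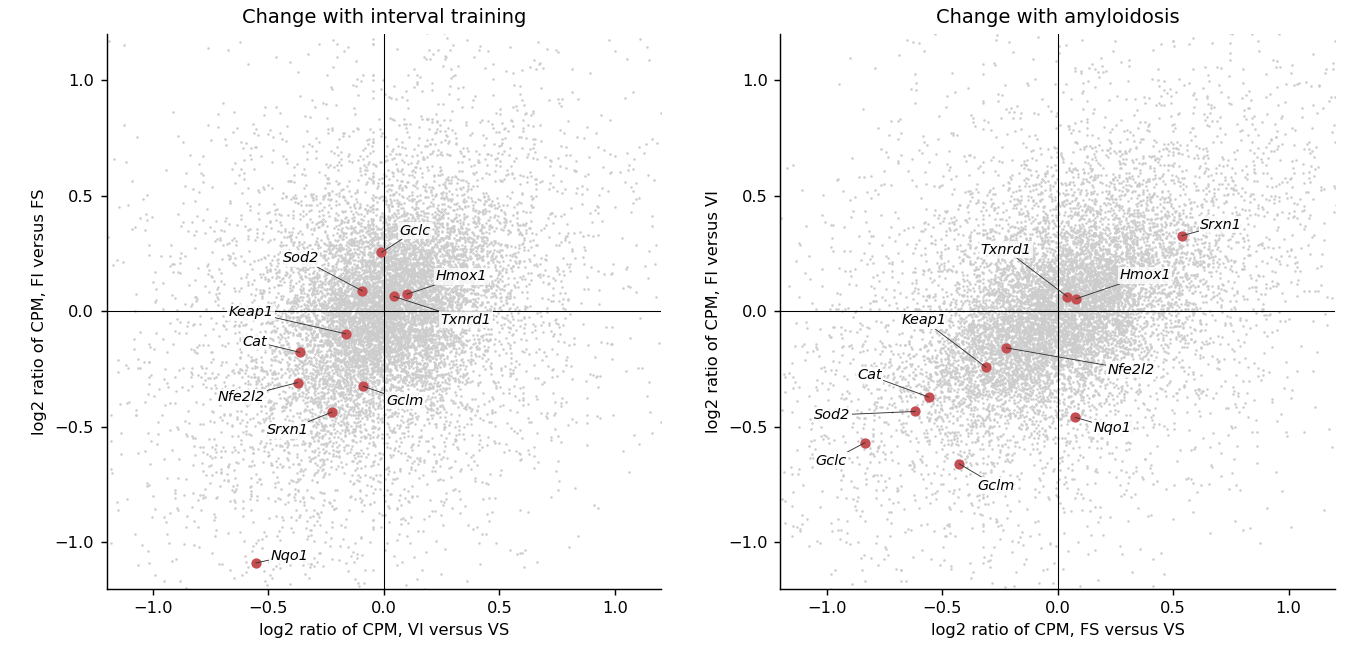
Log2 ratios of CPM of the 10 genes (red, named) among all genes that reached 1 CPM in any library (grey, those within the plotted range), with IT under fibrils against IT under vehicle on the left and amyloidosis in trained against amyloidosis in sedentary livers on the right. Nqo1 lay farthest from 0 on the left at −0.55 and −1.09. On the right Gclc, Gclm, Cat and Sod2 lay in the lower left and Srxn1 in the upper right. Axes of a panel share no library.

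Whether IT acted alike in vehicle and fibril livers was described by the difference of both log2 ratios, fibril minus vehicle, with a counting SE and no test across mice. It was 0.27 for Gclc (SE 0.0349), 0.19 for Cat (SE 0.0151) and 0.18 for Sod2 (SE 0.0448), whereas it was −0.23 for Gclm (SE 0.038). For Nqo1 it was −0.53 with an interval of −1.19 to 0.12, and for Srxn1 −0.21 with an interval of −0.43 to 0.0095. Nfe2l2, Keap1, Txnrd1 and Hmox1 had differences between −0.03 and 0.07, each with an interval that included 0. The median size of the difference was 0.184 for the members and 0.239 for all genes. A difference beyond 1 was found for 5.82% of all genes but for no member. As the paper reports less liver amyloid in FI than in FS, training and amyloid load cannot be told apart in this difference.

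Another 55 genes of the pathway were listed by role, and 52 of them reached 1 CPM in any library. With amyloidosis 1 rose (Chac1) and 4 fell (Gpx1, Ephx1, Osgin1 and Blvrb), against the 4.59% of all tested genes called in either direction, and with IT none was called by edgeR, DESeq2 or limma-voom, with 7 of 52 at an unadjusted p below 0.05, against 14.5% of all tested genes. The median log2 ratio of the 52 genes was −0.10 in FS versus VS and −0.12 in FI versus VI, and −0.03 and 0.01 in VI versus VS and FI versus FS. The core TGACNNNGC was in the promoter window of 15 of the 50 of these genes with a window (30.0%), against 14.0% of all gene symbols. It was not in the windows of the 5 called genes, which are too few to set against these shares. All 5 calls were lost when amyloidosis was the only factor.

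In the glutathione list, 8 of 10 genes were expressed. Of these, 6 were higher in FS than in VS (median log2 ratio 0.17) and 3 higher in FI than in VI (−0.13). Beside them, 6333 and 6246 of all 12180 genes were higher in these contrasts. Gss, the glutathione synthetase that acts after glutamate-cysteine ligase, had a log2 change of −0.17 with amyloidosis and an adjusted p of 0.489. Gpx1, the abundant selenium-dependent glutathione peroxidase of the cytosol, stood at 2842, 2439, 1723 and 1599 CPM in VS, VI, FS and FI, and fell by 0.67 on the log2 scale with amyloidosis (SE 0.139, adjusted p = 0.0402). Chac1, which degrades glutathione, stood at 3.30, 4.64, 8.10 and 8.64 CPM in VS, VI, FS and FI, and rose by 1.09 (SE 0.2, adjusted p = 0.0254). Both fibril libraries were thus below the vehicle libraries for Gpx1 and above them for Chac1. Gpx3, the secreted peroxidase, had a log2 change of 0.64 with an adjusted p of 0.131.

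In the detoxification and export list, 6 of 8 expressed genes were lower in FS than in VS and 7 of 8 lower in FI than in VI, with medians of −0.52 and −0.38, the lowest of the 7 lists in both contrasts. Of all genes, 48.0% and 48.72% were lower in these contrasts. Ephx1, the microsomal epoxide hydrolase, stood at 368, 372, 253 and 215 CPM in VS, VI, FS and FI and fell by 0.67 on the log2 scale with amyloidosis (SE 0.125, adjusted p = 0.0273). Osgin1, an oxidative stress-induced growth inhibitor, stood at 473, 436, 285 and 119 CPM in VS, VI, FS and FI. FI was by far the lowest, and Osgin1 fell by 1.30 on the log2 scale with amyloidosis (SE 0.257, adjusted p = 0.0436), a call that was lost with DESeq2 and with DESeq2 size factors. Its log2 ratio with IT was −0.12 under vehicle and −1.26 under fibrils. Abcc4, an export pump, had a log2 change of −0.48 with an adjusted p of 0.13.

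In the heme and iron list, Blvrb, a biliverdin reductase, stood at 104, 100.1, 58.0 and 71.5 CPM in VS, VI, FS and FI, and fell by 0.66 on the log2 scale with amyloidosis (SE 0.125, adjusted p = 0.0278). Blvra, the other biliverdin reductase, lay between 7.44 and 10.1 CPM with a log2 change of 0.01 and an adjusted p of 0.991. Ftl1, ferritin light chain, was at 5391 and 5779 CPM in VS and VI and at 3901 and 4013 CPM in FS and FI, with a log2 change of −0.50 and an adjusted p of 0.103. Ferritin genes have many processed copies, so counts of Ftl1 may be split among them.

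Among thioredoxins, peroxiredoxins and sestrins, no gene was called in the additive model. Without a filter on low counts Prdx2, Prdx6, Sesn1 and Sesn2 were called with amyloidosis, as were 7.62% of all genes tested in that setting. Txnip, which binds thioredoxin, stood at 171, 183, 91.8 and 392 CPM in VS, VI, FS and FI. FS was the lowest and FI the highest library, so FI was 4.27-fold FS (log2 ratio 2.09, 2.03 to 2.16), while VI and VS differed by 0.10, and the additive model gave an SE of 0.592 for amyloidosis. Prdx6 had a log2 change of −0.51 with amyloidosis (adjusted p = 0.0799) and Sesn2 one of 0.49 (adjusted p = 0.124). The cytosolic superoxide dismutase Sod1 was at 1159, 1126, 786 and 889 CPM in VS, VI, FS and FI (log2 change −0.45, adjusted p = 0.107), and the secreted Sod3 was between 20.2 and 28.99 CPM.

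Of the 10 regulators none was called in the additive model. Mafk was called with amyloidosis when no filter on low counts was used, a setting that called 7.62% of all tested genes. Among the regulators, 6 of 10 were higher in FS than in VS and 8 of 10 in FI than in VI (median log2 ratios 0.09 and 0.17). Of all 12180 genes, 6333 and 6246 were higher in these contrasts. Of the small MAF genes, whose products pair with NRF2, Mafg stood at 118, 85.0, 97.6 and 115 CPM in VS, VI, FS and FI, with a log2 change of 0.08 with amyloidosis and an adjusted p of 0.832. Mafk stood at 13.7, 11.6, 18.1 and 18.4 CPM in VS, VI, FS and FI, with a log2 change of 0.53 with amyloidosis (adjusted p = 0.0889), while Maff was lowest in VI at 32.6 CPM and highest in FI at 60.3 CPM (adjusted p = 0.437). Gsk3b, a kinase that marks NRF2 for degradation, lay between 21.7 and 31.5 CPM. In the NADPH supply list, Pgd, Tkt and Idh1 had log2 changes of 0.24, −0.42 and −0.28 with amyloidosis, with adjusted p-values of 0.359, 0.0914 and 0.214.

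**Figure D5:**
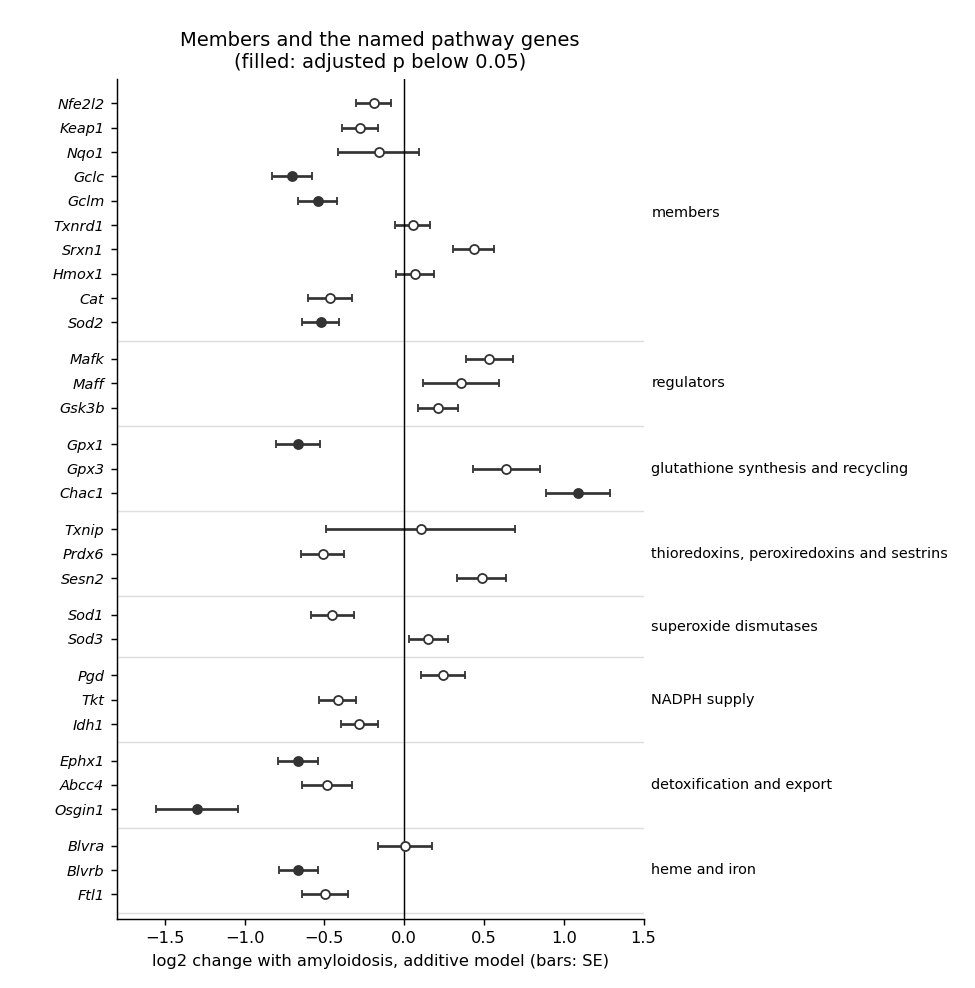
Log2 change with amyloidosis in the additive model for the 10 members and for the pathway genes named by role. Points are the estimates, bars are the SE (computed from the F statistic of the test), and filled points have an adjusted p below 0.05. Filled points on the left are Gclc, Gclm, Sod2, Gpx1, Ephx1, Osgin1 and Blvrb, and the one on the right is Chac1 at 1.09.

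The genes with a pattern like that of the 2 members with the widest range were sought among the 757 genes with a range of at least 1 on the log2 scale, by the Euclidean distance of mean-centred log2 CPM over the 4 libraries. Among the nearest to Nqo1 (range 1.09) were Limd2 at a distance of 0.0395, Sorl1 at 0.127, Cldn2 at 0.136 and Tcp11l1 at 0.18. Limd2, for example, stood at 29.6, 19.9, 30.3 and 14.7 CPM in VS, VI, FS and FI. Nqo1 had only 49 to 128 counts per library, and the distances do not take counting error into account. Within this limit, which Gclc itself (range 0.83) is below, the nearest to Gclc were Ephx2, a soluble epoxide hydrolase, at 0.175, Prickle1 at 0.195, Macrod1 at 0.208, Lrit1 at 0.234 and Vnn3 at 0.239. Ephx2 stood at 766, 673, 366 and 482 CPM in VS, VI, FS and FI. The low FS and the FI level between FS and the vehicle libraries are the shape the search selected for. Without the limit, added after seeing the data, 30 of 8896 genes lay nearer to Gclc than Ephx2, the nearest being Slc25a42 at 0.0452, and Blvrb lay at 0.0584.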

How the data were processed

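RNA of pooled liver was sequenced for the authors on an Illumina platform. They deposited the count of reads per gene without normalization and FPKM values, which equal the count over gene length and total count (69722 of 69722 values within 0.001). The submitters' processing notes name fastp 0.23.2, STAR 2.5, HTSeq 0.6.1 and mm10, and the paper edgeR; the sources used here give neither the dispersion for single libraries nor the use of strand. All 10 genes were found in GENCODE M21 (GRCm38), where 5 had identical coordinates.

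Counts were scaled by TMM (factors 0.975 to 1.02). Log2 ratios used a prior of 0.5 counts and exact conditional binomial (Clopper-Pearson) 95% intervals, and levels exact Poisson intervals. These intervals cover counting error only, since each group was 1 pooled library. Reads lack molecular identifiers and may be copies of a molecule, in which case the intervals are too narrow even for counting error. The additive model (3 coefficients, 4 libraries) was fitted with edgeR 4.0.16 (robust quasi-likelihood) in R 4.3.3 to the 11760 genes that reached 1 CPM in 2 or more libraries. Its SE was computed back from the test, as the size of the log2 change over the square root of the F statistic. Alternatives used limma 3.58.1, DESeq2 1.42.0, other scalings, units, filters and a fold of 1.5. Scripts were tested on simulated data. Figures used Python 3.11.15 and matplotlib 3.10.9.

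Named were all 10 members; up to 3 genes of each role list with at least 5 CPM in 1 library and the widest range; and, for the 2 members of widest range, the 5 nearest genes with at least 5 CPM and a range of at least 1, passing over unnamed gene models; 1 of the nearest genes is not reported here. Gss, Mafg, Slc25a42 and the genes given for a call without a filter were named after their values were seen. Members and lists were chosen with earlier results of these data known.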

Additional observations from a re-analysis of the deposited data

Results flagged for a closer look

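Among the members and the pathway genes named by role, 5 genes were set apart because they moved in opposite directions in the 2 forms of the same contrast (IT under vehicle and under fibrils, or amyloidosis in sedentary and in trained livers), with both 95% counting intervals clear of 0. With 1 pooled library per group none of these differences was tested across mice. The share of all genes that meet this rule is not given here. The pathway genes named by role had been picked for a wide range over the 4 libraries, and narrow counting intervals let small differences pass. Over all genes, 5.82% had a difference of the log2 ratios beyond 1. Sod2 was lower in VI than in VS (log2 ratio −0.09, −0.15 to −0.04) and higher in FI than in FS (0.09, 0.02 to 0.16), a difference of 0.18 (counting SE 0.0448), and 60.01% of all genes had a larger one. Its ratio in FI versus FS was 0.018 under total counts, below that interval. Maff had IT ratios of −0.52 under vehicle and 0.54 under fibrils, a difference of 1.06, and amyloidosis ratios of −0.17 in sedentary and 0.89 in trained livers, which is the same difference of 1.06. Txnip had amyloidosis ratios of −0.90 in sedentary and 1.10 in trained livers, a difference of 1.995. Prdx6 had IT ratios of −0.29 under vehicle and 0.05 under fibrils, a difference of 0.34, and its second ratio turned to −0.02 under total counts and under both FPKM settings. Sod1 had IT ratios of −0.04 and 0.18, a difference of 0.22.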

How the results depend on the processing

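The 3 called members and the 5 called pathway genes had the same direction with amyloidosis under each of the 6 alternatives of the additive model. All 6 refit the same 4 libraries, so the shared direction is no separate support. The same 3 members (Gclc, Gclm and Sod2) were called with amyloidosis under DESeq2, limma-voom and DESeq2 size factors. Without robust estimation 1 (Gclc) was called, without a filter on low counts 5 (Cat and Srxn1 added), and with amyloidosis alone 0, a model that called 8 of all genes. No member was called with IT under any of the 6 alternatives. Of the other pathway genes, 15 were called with amyloidosis without a filter (Mafk, Prdx2, Prdx6, Sesn1, Sesn2, Abcc3, Aox1, Ftl1, Sod1 and Tkt added) and 0 with amyloidosis alone, against 5, and 2 with IT without a filter, against 0; these alternatives for the other pathway genes were added after seeing the data. Members beyond 2-fold in FI versus FS numbered 0 with FPKM and a pseudocount of 1, and 0 with at least 5 CPM required, against 1, since Nqo1 is low. A fold of 1.5 gave 2 members in FS versus VS and 1 in FI versus VI, against 0, where 17.6% and 14.0% of all 12180 genes passed it. Of 40 log2 ratios of members, 8 moved beyond their counting interval under total counts, 8 and 7 under FPKM with a pseudocount of 0.1 and 1, and 0 under DESeq2 size factors. Among these, Txnrd1 in FI versus FS turned from 0.065 to −0.0060 under total counts and −0.0059 or −0.0060 under FPKM, and Sod2 in FI versus FS went from 0.09 to 0.018 under total counts and 0.0175 or 0.018 under FPKM. Over all genes, no filter gave 1519 calls with amyloidosis and 740 with IT, against 540 and 157, DESeq2 size factors gave 241 with IT, and IT alone gave 0. Genes beyond 2-fold numbered 4030 to 4567 per contrast without a filter and 144 to 353 at 5 CPM, against 419 to 706, and 1418 to 2140 passed a fold of 1.5. Except where named, the cause was not tested. Leaving out any library leaves the additive model no residual degree of freedom. No paired analysis was possible because each group has 1 library.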
